A study of Mus musculus with 10 samples.

Results

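Prostaglandins are signalling lipids that macrophages make from membrane fatty acids, and 8 genes that make, remove or sense them were followed through the deposited expression table. They were chosen by name, as the rows Ptgs1, Ptgs2, Ptges, Ptges2, Ptges3, Hpgd, Hpgds and Ptger4. All 8 were among the 11617 genes listed, and all 8 reached the minimum of 1 CPM (counts scaled to library size), averaged over libraries, that left 11407 genes for testing. Despite the name given to the set, 1 member, Ptger4, codes for a receptor and not for an enzyme.

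Macrophages derived from the bone marrow of C57BL/6 mice were used, grown in DMEM with GM-CSF at 50 ng/ml and FBS at 10%, so control and treated cells alike had been exposed to GM-CSF. The labels give an age of 6 weeks in one field and 7 weeks in another. There were 5 groups of 2 libraries each: untreated control cells with no time label, cells given AmTARS for 1 h or 3 h, and cells given Pam3CSK4 at 10 ng/ml for 1 h or 3 h. The series title names AmTARS and Pam3 as ligands of TLR2, a receptor for bacterial lipoproteins on the macrophage surface. Pam3CSK4 is a synthetic lipopeptide used to activate that receptor. The AmTARS dose is written with an unclear unit and is not used here. Nothing in the labels ties the paired libraries to separate mice or cultures, so the p-values measure only the spread between these libraries, which may be technical. Doses of the ligands cannot be matched, and the comparisons between them are comparisons of these preparations as used.

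In the prostaglandin pathway, phospholipases free arachidonic acid from membranes and the cyclooxygenases Ptgs1 (COX-1) and Ptgs2 (COX-2) turn it into the unstable intermediate PGH2. Terminal synthases then make the individual prostaglandins: Ptges, Ptges2 and Ptges3 make PGE2, and Hpgds makes PGD2. Hpgd oxidises PGE2 to an inactive product inside cells, and Ptger4 codes for EP4, a PGE2 receptor that raises cyclic AMP. In macrophages, COX-2 and the microsomal synthase Ptges are known as the inducible pair of the pathway, and PGE2 acting through EP4 is known to damp production of inflammatory cytokines.

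The libraries held 27398791 to 37559810 reads in listed genes. Of 9 macrophage markers all were listed, and their summed level was 49359 to 51073 CPM in control and 50606 to 54035 CPM in treated libraries. Most of that sum was Lyz2 (42922 to 47748 CPM over all libraries), and single markers moved. Of the 9, 5, 4, 6 and 7 changed with AmTARS at 1 h and 3 h and with Pam3CSK4 at 1 h and 3 h. In the same comparisons 38.7%, 36.7%, 48.7% and 48.9% of all tested genes changed. With Pam3CSK4 at 3 h Cd14 rose by 1.58 and the phagocytic receptor gene Mertk fell by 1.01 on the log2 scale. None of 4 T cell markers and 1 of 4 B cell markers were listed. Of 8 dendritic cell markers 2 were listed, at a summed 59.4 to 69.1 CPM over all libraries, and Flt3 and Zbtb46 were not among the listed genes. Mast cell and basophil markers, 5 of 7 listed, summed to 14.2 to 18.2 CPM with overlapping groups, and Fcer1a was not listed. Fibroblast markers, 5 of 5 listed, summed to 1540.1 to 1624 CPM in control, 1336 to 1465 with AmTARS at 1 h, 1407 to 1493 with AmTARS at 3 h, and 1350.0 to 1560.2 with Pam3CSK4. Of the 5, 3 were lower with AmTARS at 1 h, and 0 after correction for transcript length and GC content. Neutrophil markers, 5 of 6 listed without Ly6g, summed to 979 to 1067 CPM in control and 1337 to 1776 CPM in treated libraries. With AmTARS at 1 h 4 of 5 were higher, and 0 after that correction. With AmTARS at 3 h 3 were higher, and 2 after correction. With Pam3CSK4 at 1 h 4 were higher and 1 lower, and 3 and 1 after correction. With Pam3CSK4 at 3 h 4 were higher, and 3 after correction. Platelet markers, 5 of 5 listed, summed to 475 to 514 CPM in control and 623 to 730.5 CPM in treated libraries. Single macrophage, neutrophil and platelet markers thus moved with treatment at both times. Of the fibroblast markers, 1 was lower with AmTARS at 3 h, Col3a1 (-0.18, and -0.04 after correction, when it no longer passed). After correction a different 1, Dcn, was lower there (-0.19, beside -0.10 as deposited). With Pam3CSK4 at 3 h 2 fibroblast markers were lower, and 1 after correction. With Pam3CSK4 at 1 h 0 were lower as deposited and 1 after correction. The part of all these markers in the results was not tested. Across genes, the change against control fell with transcript length (Spearman rho -0.74 at 1 h and -0.67 at 3 h for AmTARS, -0.74 and -0.51 for Pam3CSK4). Values after a correction for length and GC content are therefore given beside the deposited ones wherever a call of a member was made or ended by it.

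Against control, all 8 members changed with Pam3CSK4 at 3 h and fewer did in the other treated groups. With Pam3CSK4 at 3 h, 5 of the 8 members were higher and 3 lower, against 48.9% of all tested genes changed in that comparison (24.7% higher, 24.2% lower). The higher members were Ptges, Ptgs2, Ptges2, Ptges3 and Ptger4, and the lower ones were Hpgd, Hpgds and Ptgs1. With AmTARS at 3 h, 2 members (Ptges and Ptges2) were higher and 4 (Ptgs1, Ptgs2, Hpgd and Hpgds) lower, against 36.7% of genes (18.8% higher, 17.9% lower). At 1 h only small changes passed. For AmTARS 1 of 8 was higher, against 38.7% of genes changed (18.9% higher, 19.8% lower). For Pam3CSK4 2 were higher and 1 lower, against 48.7% (23.9% higher, 24.8% lower). After the length and GC correction, 2 and 5 members changed with AmTARS at 1 h and 3 h, against 13.9% and 18.5% of genes. With Pam3CSK4 3 and 8 changed, against 22.8% and 42.0%. The median log2 fold change of the 8 members was 0.07 and -0.11 for AmTARS at 1 h and 3 h, and 0.12 and 0.22 for Pam3CSK4, beside medians of -0.01 to 0.00 over all tested genes. A gene is said to have changed where limma's moderated test gave an adjusted p below 0.05.

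**Figure D1:**
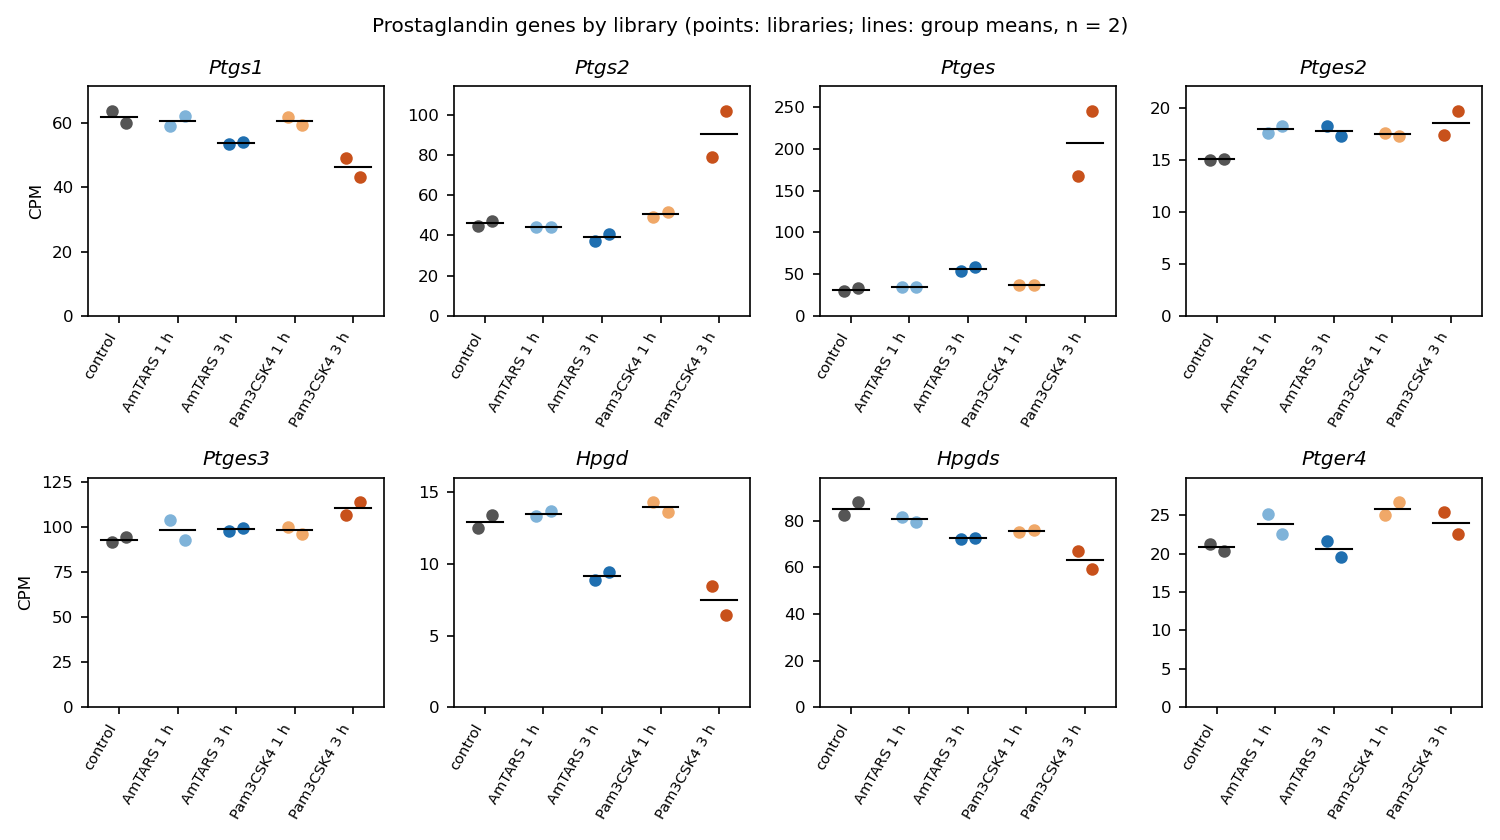
CPM of each prostaglandin gene (vertical axis, from 0) in every library, by group (horizontal axis); points are libraries and lines are means of 2 libraries. Ptges stands at 168 and 246 CPM in the Pam3CSK4 3 h libraries and at 30.2 to 58.6 CPM in all others, while Hpgd is lowest in the 3 h groups.

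**Figure D2:**
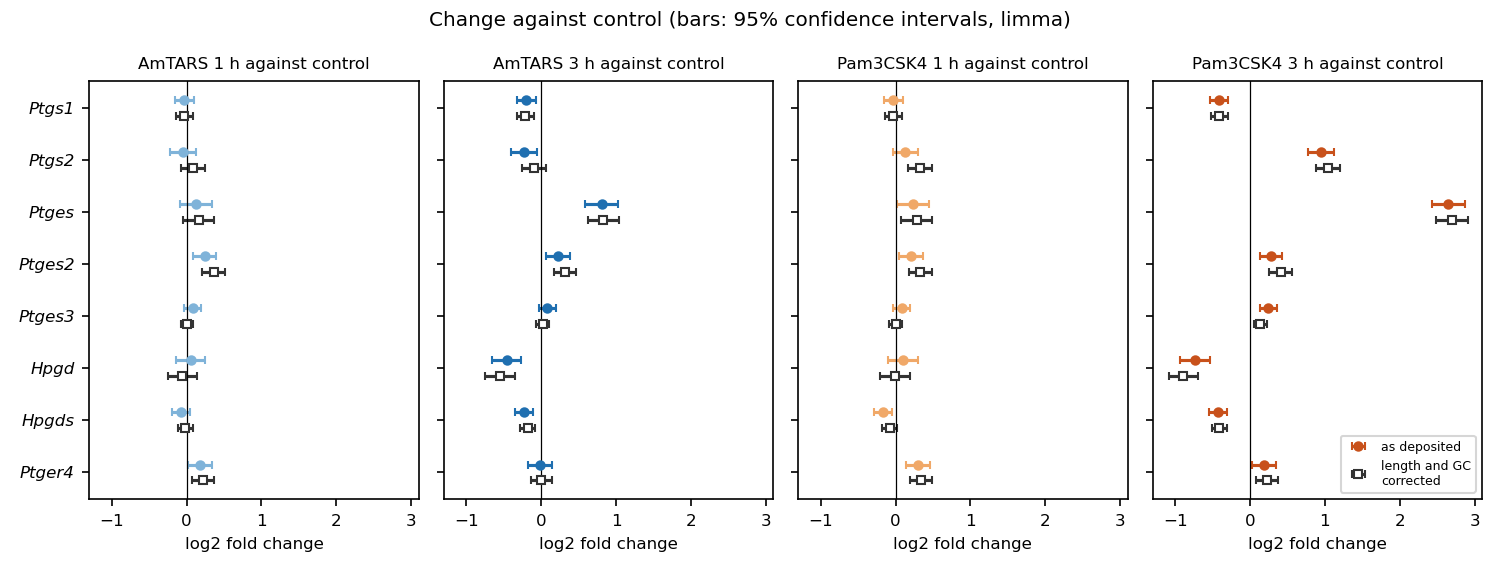
Log2 fold change of each member against control (horizontal axis) in the 4 treated groups, as deposited (filled circles) and after correction for length and GC content (open squares); bars are 95% confidence intervals. Ptges at 3 h of Pam3CSK4 lies at 2.65, beyond the intervals of all other members.

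Of the cyclooxygenases, Ptgs2 rose with Pam3CSK4 at 3 h and Ptgs1 fell. Ptgs2 (chr1:150100031-150108227, plus strand, mm10) is the inducible enzyme. It was measured at 44.8 and 47.1 CPM in control, 44.4 and 44.4 with AmTARS at 1 h, 37.2 and 40.8 with AmTARS at 3 h, 49.2 and 51.8 with Pam3CSK4 at 1 h, and 79.1 and 102 with Pam3CSK4 at 3 h. Both Pam3CSK4 3 h libraries lay above all others, and both AmTARS 3 h libraries below all others. The rise with Pam3CSK4 at 3 h was 0.95 on the log2 scale (SE 0.08, 1.93-fold, adjusted p = 9.94e-09), place 151 of 11407 from the top. In bulk RNA, a shift in how many cells express a gene cannot be told apart from a shift in the RNA per cell. With AmTARS at 3 h Ptgs2 was lower by a log2 change of -0.23 (SE 0.08, adjusted p = 0.0305), but after the length and GC correction the value was -0.10 (adjusted p = 0.425). That call was also lost without the intensity trend (adjusted p = 0.109), without either control library and without replicate 1 of AmTARS 3 h. The log2 values lay between -0.30 and -0.16 over the libraries left out in turn. With Pam3CSK4 at 1 h the value was 0.13 (95% interval -0.03 to 0.30, adjusted p = 0.177) as deposited and 0.33 (adjusted p = 0.00320) after correction. The small Ptgs2 differences outside Pam3CSK4 at 3 h thus depended on that correction, and the 3 h Pam3CSK4 value did not (1.04 after it).

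Ptgs1 (chr2:36230426-36252272, plus strand) is the constitutive cyclooxygenase. Its level was 63.8 and 59.8 CPM in control, 59.0 and 62.2 with AmTARS at 1 h, and 53.5 and 54.0 with AmTARS at 3 h. With Pam3CSK4 it was 61.9 and 59.4 CPM at 1 h and 49.2 and 43.3 at 3 h. The 1 h groups overlapped control, and both 3 h groups lay below it. Ptgs1 fell by 0.41 on the log2 scale with Pam3CSK4 at 3 h (SE 0.06, adjusted p = 1.52e-05) and by 0.20 with AmTARS at 3 h (SE 0.06, adjusted p = 0.0162). The AmTARS call was lost without control replicate 2 or without either AmTARS 3 h library, over a range of -0.24 to -0.15, and without the intensity trend (adjusted p = 0.0565).

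To compare levels between genes, CPM was divided by the length of the longest coding transcript. On that scale Ptgs2 stood at 0.447 to 0.562 of Ptgs1 in the 8 libraries outside Pam3CSK4 at 3 h. In the Pam3CSK4 3 h libraries the ratio was 1.04 and 1.51. By this measure COX-2 transcripts stood below those of COX-1 in the 8 libraries and near or above them in these 2. Which transcript of each gene the cells used was not tested.

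**Figure D3:**
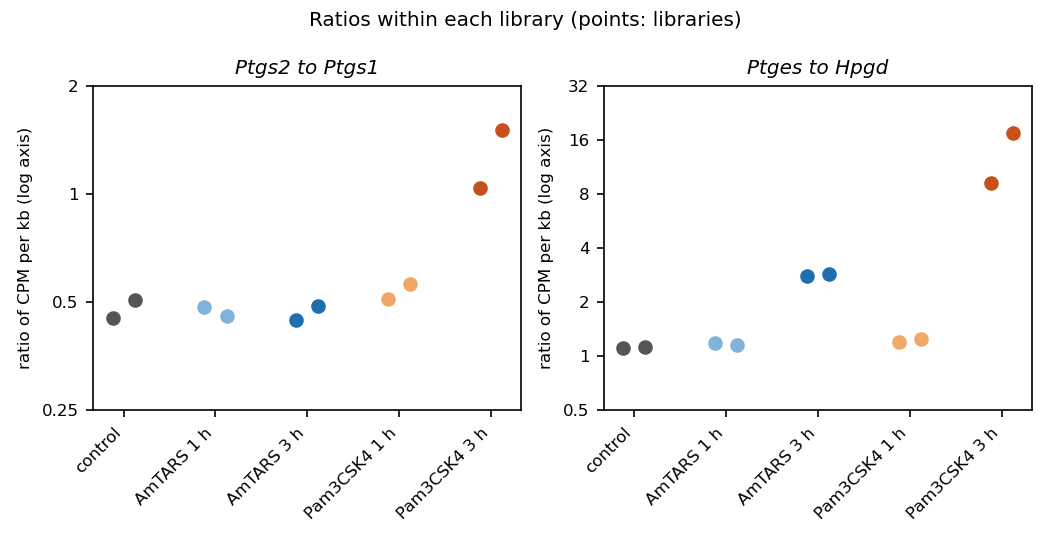
Ratio of CPM per kb (vertical log axis) of Ptgs2 to Ptgs1 and of Ptges to Hpgd in each library, by group (horizontal axis). The Ptgs2 to Ptgs1 ratio exceeds 1 in the Pam3CSK4 3 h libraries alone, while Ptges to Hpgd is also raised with AmTARS at 3 h (2.79 and 2.88).

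The sequence before the start of Ptgs2 is shown because this gene and Ptges moved together with Pam3CSK4 at 3 h, while Hpgd moved the opposite way. Sequences are RefSeq promoter windows of build GRCm38.p6 (mm10), matched by symbol for 8 of 8 members, read 5′ to 3′ on the gene's strand and ending at the base before the annotated start. Capitals mark every match, on either strand, to 1 of 8 motifs: CGTCA (part of the cyclic AMP response element), CACGTG (E-box), TTGCGCAA (C/EBP palindrome), TGANTCA (AP-1), GTGGGCG (EGR core), GGGCGG (GC box), TATAAA and the NF-kB consensus. The motifs were picked with the sequences in view.
Ptgs2 promoter, chr1:150099781-150100030, plus strand: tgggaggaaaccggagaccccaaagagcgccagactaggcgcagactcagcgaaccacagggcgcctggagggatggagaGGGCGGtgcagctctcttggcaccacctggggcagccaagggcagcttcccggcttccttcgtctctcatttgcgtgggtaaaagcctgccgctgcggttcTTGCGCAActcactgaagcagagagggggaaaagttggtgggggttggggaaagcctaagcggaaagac
Ptgs2 from the start on, chr1:150100031-150100060, plus strand: agagtcaccactaCGTCACGTGgagtccgc
Ptges promoter, chr2:30903298-30903547, minus strand: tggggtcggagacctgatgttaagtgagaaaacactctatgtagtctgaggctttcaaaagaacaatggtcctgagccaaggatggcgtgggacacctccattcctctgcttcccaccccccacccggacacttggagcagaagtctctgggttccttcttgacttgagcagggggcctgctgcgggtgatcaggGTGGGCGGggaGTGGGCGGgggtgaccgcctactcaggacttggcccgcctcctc
Hpgd promoter, chr8:56294302-56294551, plus strand: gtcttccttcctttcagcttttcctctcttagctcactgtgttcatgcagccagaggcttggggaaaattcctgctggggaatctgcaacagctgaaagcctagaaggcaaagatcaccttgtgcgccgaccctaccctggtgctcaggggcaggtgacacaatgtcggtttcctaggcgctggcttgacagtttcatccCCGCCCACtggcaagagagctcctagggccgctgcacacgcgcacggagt

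The Ptgs2 window held TTGCGCAA with its first base 69 bases before the start, a motif found in 0.183% of the 32851 mouse promoter windows of 300 bases (250 before the start and 50 from it on). Of the 8 members, Ptgs2 alone had it. The 30 bases from the Ptgs2 start on held CGTCA and CACGTG overlapping by 2 bases, in 20.8% and 7.15% of windows. In Ptges, GTGGGCG occurred 55 and 44 bases before the start, each time overlapping a GC box. Hpgd had GTGGGCG too, on the opposite strand 49 bases before its start and again at base 39 from it, and TATAAA at base 5. GTGGGCG was present in 7.97% of all windows, GGGCGG in 35.7% and TATAAA in 13.6%. No member's window matched TGANTCA (7.81% of windows) or the NF-kB consensus (4.51%), which says only that these letters are not in these windows. A match is a description of the sequence, and binding was not measured. The RefSeq start of Ptges used here lies inside the longer gene span that GENCODE annotates. That of Hpgd (base 56294552) lies before the start of the gene in GENCODE (base 56294585). The Hpgd TATAAA falls between these starts, so whether it counts as before or after the start depends on the annotation.

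The Ptgs2 transcript also carries an AU-rich 3′ UTR, a kind of sequence known to shorten the life of messages of immediate response genes. Its 2445-base 3′ UTR held ATTTA 14 times, overlapping copies included, and 2.71% of 11089 tested genes had at least as many. Per kb of 3′ UTR it held 5.73 copies, and 4.53% of these genes were at least as dense. The stretch with 4 copies, in capitals, begins at base 12 of the 3′ UTR.
Ptgs2 3′ UTR, chr1:150105794-150105823, plus strand: ccatATTTATTTATTTAtgtgaagaATTTA
Ptges, the other strongly raised member, had no ATTTA in 3106 bases, and Ptgs1 had none in 921 bases. The remaining members had 2 to 5 copies. Per kb, Hpgd, which fell, was close to Ptgs2 at 4.77 copies, with 6.99% of genes at least as dense. Ptger4 had 4.06 copies per kb (10.4%), Ptges3 3.37, Ptges2 1.16 and Hpgds 0.760. Carrying many copies was thus not a shared feature of the members that rose.

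Ptges showed the largest change of the set and was among the strongest of all genes. It codes for the membrane-bound PGE2 synthase that works with COX-2 (chr2:30889471-30929863, minus strand). Its level was 30.2 and 32.9 CPM in control, 34.5 and 34.5 with AmTARS at 1 h, and 37.4 and 37.1 with Pam3CSK4 at 1 h. At 3 h it was 53.5 and 58.6 CPM with AmTARS and 168 and 246 CPM with Pam3CSK4. The 3 h groups did not overlap each other or any other group. Ptges rose by 2.65 (SE 0.10, 6.27-fold, adjusted p = 7.96e-14) with Pam3CSK4 at 3 h, the rank 7 rise of 11407 genes. With AmTARS at 3 h it rose by 0.81 (SE 0.10, 1.75-fold, adjusted p = 1.98e-05), rank 16 in that comparison. At 1 h the values were 0.13 for AmTARS (adjusted p = 0.355) and 0.23 for Pam3CSK4 (95% interval 0.02 to 0.45, adjusted p = 0.0687). The latter value passed without either Pam3CSK4 3 h library (adjusted p = 0.00214 and 0.00229), with only the groups compared (0.00296) and with quantile normalization (0.0474). Over the 10 libraries left out in turn, the Pam3CSK4 3 h value ran from 2.38 to 2.92 and the AmTARS 3 h value from 0.74 to 0.87, and every fit kept both calls. The length and GC correction left them at 2.70 and 0.83. The Pam3CSK4 3 h libraries differed from each other by more than those of any other group (207 ± 54.9 CPM, SD, n = 2). Replicate 3 of that group lay farther from the control mean than replicate 2 for 7 of the 8 members, all but Ptger4, and for 92.2% of the 1024 genes with an absolute log2 change of at least 0.5.

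Ptges2 and Ptges3 code for the membrane-associated and the cytosolic PGE synthase, and their changes were small. Ptges2 was 15.0 and 15.1 CPM in control and 17.3 to 19.7 CPM in the 8 treated libraries, without overlap. Its log2 rise was 0.24 and 0.22 with AmTARS at 1 h and 3 h (adjusted p = 0.0144 and 0.0210) and 0.20 and 0.28 with Pam3CSK4 (adjusted p = 0.0261 and 0.00333). With correction for length and GC content these values became 0.36 and 0.32 with AmTARS and 0.33 and 0.41 with Pam3CSK4. This was the only member that passed the test in all 4 comparisons with control, and its 3 h and 1 h levels did not differ past the threshold for either ligand (adjusted p = 0.977 for AmTARS and 0.451 for Pam3CSK4). When reads were scaled by plain totals, the values at AmTARS 1 h, AmTARS 3 h and Pam3CSK4 1 h dropped to 0.17, 0.16 and 0.14 and no longer passed (adjusted p = 0.0593, 0.0824 and 0.108). The summed CPM of listed genes, which plain totals set equal, was 959639 and 960837 in control and 998260 to 1037796 in treated libraries. Leaving out either control library also ended these 3 calls, as did leaving out AmTARS 1 h replicate 3, AmTARS 3 h replicate 1 or either Pam3CSK4 1 h library for the comparison it belongs to, within 0.19 to 0.26. The Pam3CSK4 3 h call was lost without its replicate 3 (0.20).

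Ptges3, also known as the HSP90 co-chaperone p23, was 92.0 and 94.4 CPM in control and 107 and 114 CPM with Pam3CSK4 at 3 h. The other 6 libraries held 93.0 to 104 CPM, of which 1, with AmTARS at 1 h, lay within the control values and 5 above them, and none of these 3 groups passed the test (adjusted p = 0.245 to 0.284, and 0.791 to 0.985 after the length and GC correction). It rose by 0.24 with Pam3CSK4 at 3 h (SE 0.06, adjusted p = 0.00107), or 0.13 (adjusted p = 0.0133) after the length and GC correction. Ptges3 has processed pseudogene copies in the mouse genome, and how reads shared with them were counted is not given in the sources used here. Per kb it was the most abundant member in every group except Pam3CSK4 at 3 h, at 46.6 ± 0.859 CPM per kb in control. At 3 h of Pam3CSK4, Ptges (56.7 ± 15.0) and Ptges3 (55.3 ± 2.63 CPM per kb) did not differ beyond their spread.

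Hpgds, the haematopoietic PGD2 synthase (chr6:65117293-65144908, minus strand), fell at 3 h with both ligands. Its level was 82.3 and 88.0 CPM in control, 81.7 and 79.6 with AmTARS at 1 h, and 75.2 and 75.9 with Pam3CSK4 at 1 h. At 3 h it was 72.4 and 72.5 CPM with AmTARS and 67.2 and 59.2 CPM with Pam3CSK4. Every treated library lay below both control libraries. The log2 change was -0.23 with AmTARS at 3 h (SE 0.06, adjusted p = 0.00427) and -0.43 with Pam3CSK4 at 3 h (SE 0.06, adjusted p = 5.02e-06). The AmTARS call was lost without control replicate 3, over a range of -0.28 to -0.18. With Pam3CSK4 at 1 h the change of -0.17 passed as deposited (adjusted p = 0.0193) and became -0.08 (adjusted p = 0.286) after the length and GC correction. Hpgds is also known as a mast cell gene. The mast cell and basophil markers summed to 14.2 and 17.5 CPM in control and 15.9 and 18.2 CPM with Pam3CSK4 at 3 h, and none of the 5 passed the test there (0 of 5 with limma on deposited values and 0 at an unadjusted p under 0.05, and 1 of 5 after the length and GC correction). With AmTARS at 3 h they summed to 16.6 and 18.1 CPM, and 1 of 5 was higher, the mast cell protease gene Cpa3 (0.33, adjusted p = 0.0348, and 0.21, adjusted p = 0.214, after correction).

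Hpgd, the enzyme that starts the breakdown of PGE2 (chr8:56294585-56321043, plus strand), was the member that fell most. It was 12.5 and 13.4 CPM in control, 13.3 and 13.7 with AmTARS at 1 h, and 14.3 and 13.6 with Pam3CSK4 at 1 h. At 3 h it was 8.84 and 9.40 CPM with AmTARS and 8.43 and 6.47 CPM with Pam3CSK4. The 4 libraries of 3 h lay below the other 6. These levels rest on 233 to 492 reads per library. The log2 change was -0.46 with AmTARS at 3 h (SE 0.09, adjusted p = 0.000983) and -0.73 with Pam3CSK4 at 3 h (SE 0.09, adjusted p = 3.09e-06). The length and GC correction moved both further down, to -0.55 and -0.89. From 1 h to 3 h of AmTARS Hpgd fell by 0.52 (adjusted p = 0.00312), the rank 4 fall of 11407 genes.

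Per kb, Ptges stood at 1.11 and 1.13 of Hpgd in control and at 1.16 to 1.25 in the 1 h groups. With AmTARS at 3 h the ratio was 2.79 and 2.88, and with Pam3CSK4 at 3 h it was 9.19 and 17.5. The ratio of the PGE2 synthase Ptges to the PGD2 synthase Hpgds went from 0.350 and 0.356 in control to 0.705 and 0.771 with AmTARS and 2.38 and 3.95 with Pam3CSK4 at 3 h. These are ratios of transcripts, and enzymes and prostaglandins were not measured.

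Ptger4 (chr15:5206661-5244187, minus strand) was 21.2 and 20.4 CPM in control, 25.1 and 22.6 with AmTARS at 1 h, and 21.7 and 19.5 with AmTARS at 3 h. With Pam3CSK4 it was 25.0 and 26.7 CPM at 1 h and 25.4 and 22.5 at 3 h. The AmTARS 3 h group overlapped control, and the other 3 treated groups lay above it. The largest change was 0.30 with Pam3CSK4 at 1 h (SE 0.08, adjusted p = 0.00321). At 3 h of Pam3CSK4 it was 0.19 (adjusted p = 0.0447). This change did not pass with plain read totals (0.11, adjusted p = 0.289) or without the intensity trend (0.19, adjusted p = 0.0775). Nor did it pass without either control library or replicate 2 of the treated group (0.11 at the lowest). The AmTARS 1 h value of 0.18 had an adjusted p of 0.0627 as deposited and of 0.0428 with the length and GC correction (0.22). Ptger4 overlaps the opposite-strand gene Ttc33, and whether reads were counted by strand is not given in the sources used here.

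**Figure D4:**
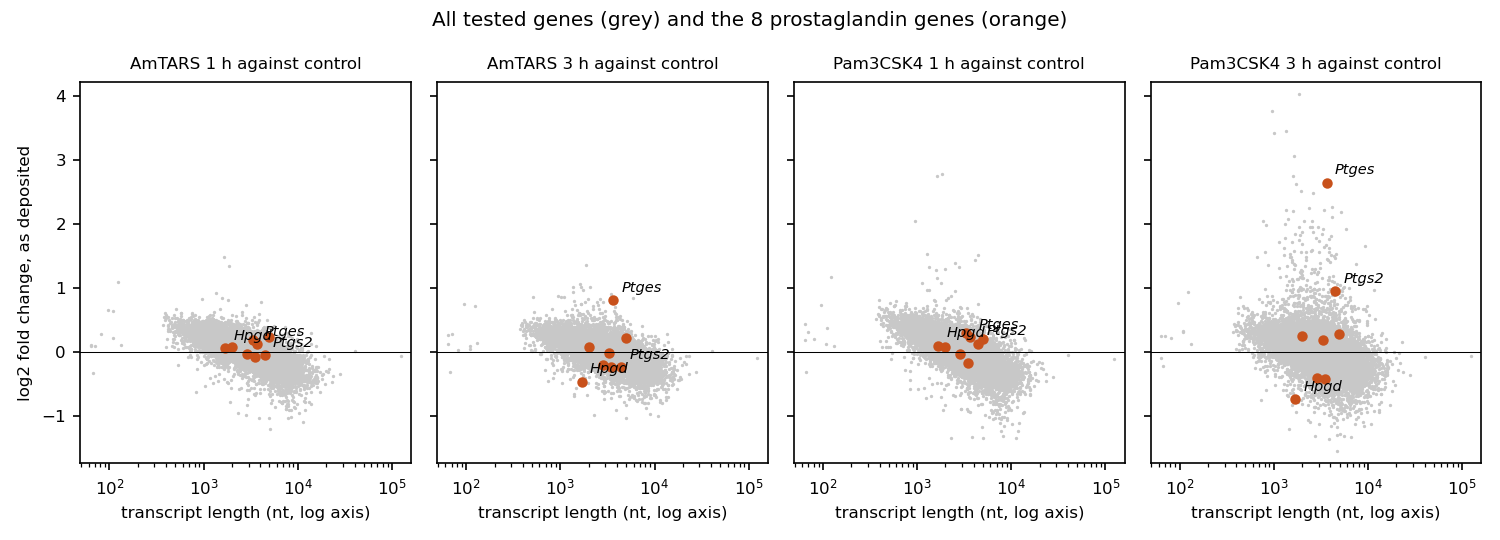
Log2 fold change against control as deposited (vertical axis) by length of the longest coding transcript (horizontal log axis) for all tested genes with a length (grey) and the 8 prostaglandin genes (orange, with Ptges, Ptgs2 and Hpgd named). The cloud falls with length in all 4 comparisons (Spearman rho -0.51 to -0.74), and at 3 h Ptges lies at or above its upper edge and Hpgd near its lower edge.

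The ligands were next compared at matched times. At 1 h limma called 0 of 8 members between Pam3CSK4 and AmTARS, beside 0.184% of all genes, 1 of 8 had an unadjusted p under 0.05, and voom on recovered reads called 0. The 95% interval of the Ptges difference at 1 h ran from -0.11 to 0.32 and that of the Ptgs2 difference from 0.01 to 0.35. At 3 h 4 of 8 differed, against 17.1% of genes. Ptgs2 was higher with Pam3CSK4 by 1.18 (SE 0.08, 2.27-fold, adjusted p = 1.03e-09) and Ptges by 1.84 (SE 0.10, 3.58-fold, adjusted p = 8.27e-11), places 44 and 10 of 11407 from the top. Ptgs1 was lower by a log2 difference of -0.22 (adjusted p = 0.0170) and Hpgds by one of -0.20 (adjusted p = 0.0207). Without the intensity trend these last 2 differences did not pass (adjusted p = 0.0715 and 0.0856), nor did they without either AmTARS 3 h library or replicate 3 of Pam3CSK4 3 h. They were -0.13 and -0.11 without that replicate, and -0.31 and -0.29 without replicate 2 of Pam3CSK4 3 h. For Hpgd the difference of -0.27 (95% interval -0.47 to -0.07) had an adjusted p of 0.0564, and of 0.0117 after the length and GC correction (-0.34). Ptger4 likewise had a difference of 0.21 (adjusted p = 0.0697), and of 0.23 (adjusted p = 0.0241) after that correction, so that 6 of 8 members then differed (3 higher, 3 lower), against 22.0% of genes. Ptges3 lay at the threshold (0.16, 95% interval 0.05 to 0.28, adjusted p of 0.05 after rounding, not called). It passed with voom (adjusted p = 0.0460), with all listed genes tested, and without 5 of the 10 libraries left out in turn (adjusted p from 0.0238 to 0.0497). Ptges2 differed by 0.06 (95% interval -0.10 to 0.21).

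The change from 1 h to 3 h was tested for each ligand. With AmTARS 2 of 8 members changed, against 2.38% of genes: Ptges rose by 0.68 (SE 0.10, adjusted p = 0.000515), rank 7 of 11407, and Hpgd fell as given above. Without the intensity trend the adjusted p of these values was 0.0738 and 0.0558. With Pam3CSK4 6 of 8 changed, against 31.5% of genes. Ptgs2 rose by 0.82 (adjusted p = 1.12e-07), Ptges by 2.42 (adjusted p = 5.16e-13) and Ptges3 by 0.17 (adjusted p = 0.0241). Ptgs1 fell by 0.39 (adjusted p = 5.39e-05), Hpgd by 0.83 (adjusted p = 8.07e-07) and Hpgds by 0.26 (adjusted p = 0.00177). The change over time differed between the ligands for 2 of 8 members, against 9.20% of genes: Ptgs2, with a difference of 1.00 (SE 0.11, adjusted p = 3.95e-06), and Ptges, with 1.73 (SE 0.15, adjusted p = 1.35e-07). For Ptgs2 the value over time was -0.18 with AmTARS, which did not pass (adjusted p = 0.346), and 0.82 with Pam3CSK4, whereas Ptges rose with both. The difference was -0.31 for Hpgd (adjusted p = 0.172) and -0.10 for Hpgds (adjusted p = 0.518). Without replicate 2 of Pam3CSK4 3 h it was -0.48 for Hpgd and -0.31 for Ptgs1, the latter beside -0.22 with all libraries.

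Among the 9157 genes that averaged at least 5 CPM, those whose log2 values followed Ptges most closely over the 10 libraries were Tarm1 (Pearson r = 0.998), Tlr2, Traf1, Clec4e and Gpr84 (each r = 0.997). The Tlr2 transcript codes for the receptor named in the series title. Its mean log2 level was 7.95 in control, 8.12 and 8.51 with AmTARS at 1 h and 3 h, and 8.19 and 9.69 with Pam3CSK4, the same order of groups as for Ptges (5.02, 5.15, 5.83, 5.26 and 7.67). Among the genes near Ptgs2 by the same measure were Stard7 (r = 0.967), Lztfl1 (0.963), Flrt3 (0.962) and Ccl22 (0.961). Ccl22, a chemokine, was at a mean log2 level of 3.49 in control, 3.27 with AmTARS at 3 h and 4.11 with Pam3CSK4 at 3 h. These correlations describe libraries that fall into groups, and the Pam3CSK4 3 h libraries weigh most in them.

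Around the members, the rest of the pathway was followed through lists of named genes, of which only those tested are counted. Counts at 3 h stand against 48.9% of all tested genes changed with Pam3CSK4 and 36.7% with AmTARS. After the length and GC correction these shares were 42.0% and 18.5%. In arachidonate release, 10 of 17 genes were tested. With Pam3CSK4 for 3 h 1 rose, Pla2g12a (0.34, adjusted p = 0.00324, but 0.20 and adjusted p = 0.0566 after the length and GC correction). Another 3 fell, led by the diacylglycerol lipase Daglb (-0.65, adjusted p = 3.82e-09) and the lysosomal phospholipase Pla2g15 (-0.48, adjusted p = 1.38e-07). Daglb was 125 and 119 CPM in control and 79.7 and 74.6 CPM with Pam3CSK4 at 3 h. The list median was -0.12 there. With AmTARS at 3 h 1 rose and 2 fell, and Daglb was among the latter (-0.27, adjusted p = 0.000664, and -0.17 after correction). The main cytosolic phospholipase, Pla2g4a, named here after its values were seen, was 30.7 and 30.9 CPM in control and 32.4 and 34.7 CPM with Pam3CSK4 at 3 h (log2 change 0.12, adjusted p = 0.115).

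Among other prostanoid synthases and reductases, 7 of 10 were tested. With Pam3CSK4 at 3 h, 3 rose and 1 fell, and the list median was 0.08. After the length and GC correction 1 rose and 3 fell, with a median of -0.12. Fam213b, a prostamide and prostaglandin F synthase, had the largest value (0.44, adjusted p = 1.70e-05, and 0.16 after correction), and the prostaglandin reductases went different ways, with Ptgr2 at -0.29 (adjusted p = 0.000310) and Zadh2 at 0.23 (adjusted p = 0.00734). Of the prostanoid receptors other than Ptger4, 3 of 8 were listed and 2 tested. Ptger2, the second cyclic AMP raising PGE2 receptor, was 33.3 and 32.4 CPM in control and 25.6 and 22.9 CPM with Pam3CSK4 at 3 h. It fell by 0.42 (SE 0.07, adjusted p = 4.75e-05). Ptgir, the prostacyclin receptor, was 27.6 and 29.0 CPM in control and 38.8 and 40.5 CPM with Pam3CSK4 at 3 h. It rose by 0.47 (SE 0.06, adjusted p = 2.62e-06). Both also differed between the ligands at 3 h, by -0.37 (adjusted p = 0.000597) and 0.35 (adjusted p = 0.000243), and the correction moved neither call. The 2 receptors thus went in opposite directions while Ptger4 itself moved little.

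All 4 prostanoid transporters were tested. Slco3a1, a prostaglandin carrier, was 28.1 and 26.7 CPM in control and 38.8 and 43.9 CPM with Pam3CSK4 at 3 h, a rise of 0.57 (SE 0.07, adjusted p = 1.54e-06). Abcc1 rose by 0.28 (adjusted p = 0.00165, and 0.50 after correction) there and fell by 0.39 (adjusted p = 0.000193) and 0.42 (adjusted p = 3.73e-05) at 1 h of AmTARS and Pam3CSK4. Those falls were -0.14 and -0.16 after the length and GC correction. Abcc4, a PGE2 exporter, was lower in all 4 comparisons (-0.27 to -0.19), and between -0.06 and -0.02 after the correction. Slco2a1 passed in none of the 4.

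In the leukotriene and lipoxygenase branch, which competes for the same arachidonic acid, 12 of 16 genes were tested. With Pam3CSK4 at 3 h 1 rose, the leukotriene B4 receptor gene Ltb4r1 (0.29, adjusted p = 0.0155, and 0.07 after correction), and the list median was 0.07. After the length and GC correction 1 was higher and 3 lower, with a median of -0.11. The leukotriene receptor genes Cysltr1 and Cysltr2 were then at 0.20 and -0.44, and the leukotriene synthesis genes Ltc4s and Lta4h at -0.41 and -0.11. Cysltr2 lay near the minimum of 1 CPM, at 1.94 and 1.37 CPM in control and 1.23 and 1.05 CPM with Pam3CSK4 at 3 h. At 1 h 5 of 12 rose with each ligand and 1 fell with Pam3CSK4. Of all genes 38.7% and 48.7% changed in these comparisons (18.9% and 23.9% higher). Among the genes that rose were the microsomal glutathione transferases Mgst2 and Mgst3 (0.39 to 0.49). After correction 2 of 12 passed for AmTARS and 1 for Pam3CSK4, against 13.9% and 22.8% of genes. Of genes that cyclic AMP is known to induce or that break it down, 10 of 12 were tested. Pde4b, a cyclic AMP phosphodiesterase, rose in all 4 comparisons, from 47.7 and 48.5 CPM in control to 98.5 and 125 CPM with Pam3CSK4 at 3 h (1.19, SE 0.10, adjusted p = 4.67e-09). Nr4a1 rose in all 4 as well, most with Pam3CSK4 at 1 h (0.96, adjusted p = 9.50e-07). Sik1 and Pde4a fell with Pam3CSK4 at 3 h, both by 0.41 (adjusted p = 0.000413 and 0.000405). That list therefore moved both ways (3 higher and 3 lower with Pam3CSK4 at 3 h, median -0.02).

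**Figure D5:**
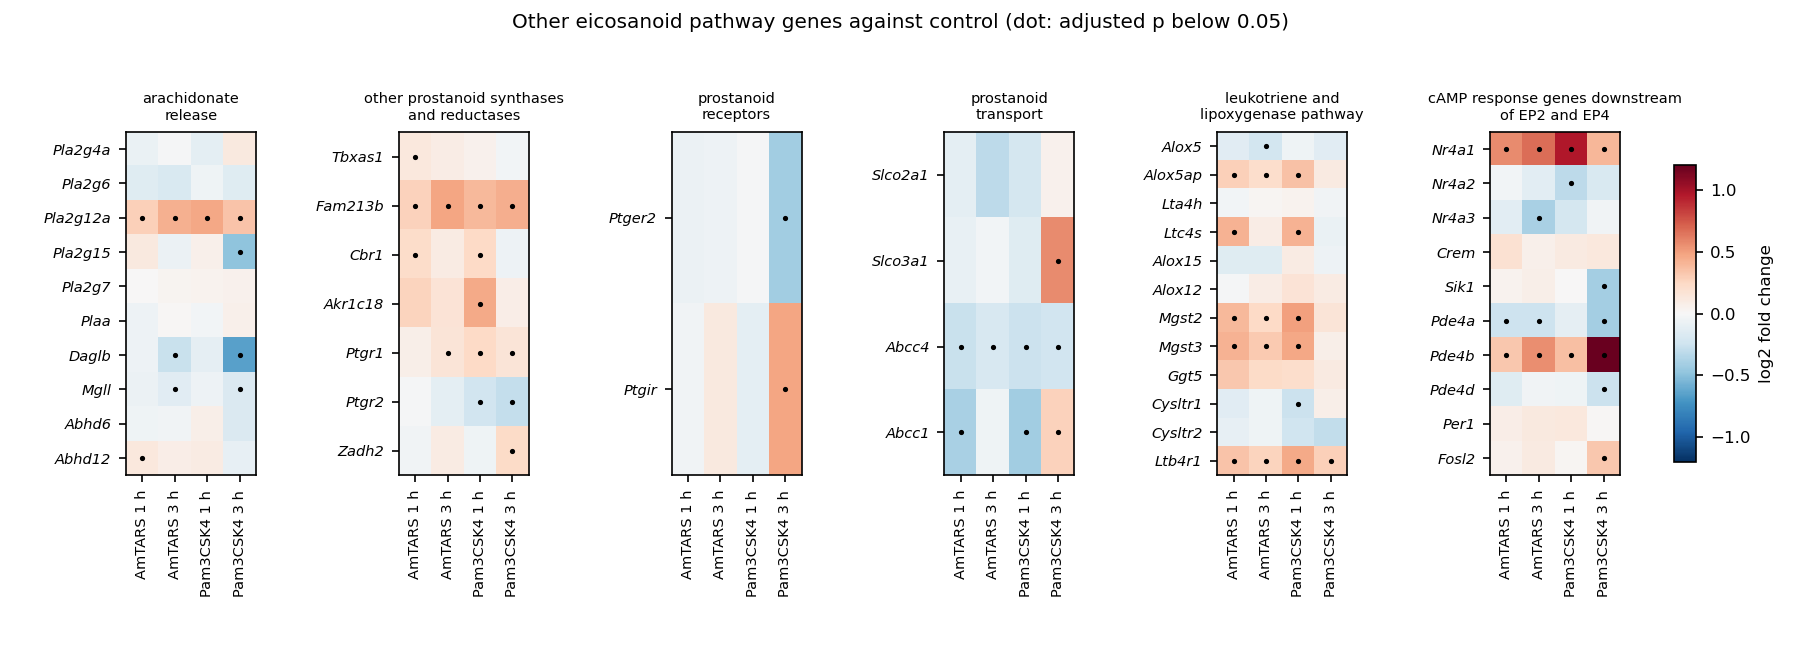
Log2 fold change (colour, scale at right) against control of the tested genes of 6 lists around the members (rows) in the 4 treated groups (columns); a dot marks an adjusted p below 0.05. With Pam3CSK4 at 3 h the darkest cells are Pde4b (1.19, at the end of the colour scale) and Daglb (-0.65).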

How the data were processed

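Messenger RNA was sequenced from stranded, poly-A selected libraries, per the labels' protocols. The submitters' processing notes name STAR 2.5.1, R 3.3.0 and the genome build mm10, and the sources used here do not give the read counter, annotation or scaling. The deposited values are log2(CPM + 1). Back-transformed, 100% of values were whole reads to within 0.1 read. No gene was listed at 0, so genes without reads in some library could not be followed. The summed CPM of listed genes was lower in control than in treated libraries.

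A model with 1 mean per group was fitted with limma 3.58.1 (R 4.3.3), with an intensity trend, to the 11407 genes averaging 1 CPM or more, so all groups share 1 spread per gene. The Benjamini-Hochberg adjustment was made in each of 9 contrasts over all these genes, at 0.05. SE is the moderated standard error on the log2(CPM + 1) scale, which understates changes of low genes, and ± gives the SD over 2 libraries. Intervals and p-values cover these libraries only. Transcript length and GC content came from GENCODE M21 (11364 tested genes matched). The correction fitted each library on splines of both, with 5 degrees of freedom each. Alternatives were other pseudocounts, scalings, filters and fits, voom in limma on the recovered reads, and leaving out each library. The fitting code was tested on simulated data. Of each pathway list at most the 3 largest changes per comparison were named, and lists of 6 or fewer tested genes could be named in full. For the leukotriene list with Pam3CSK4 at 3 h, the genes that passed after the length and GC correction were named as well. The 5 most similar genes were named for members whose group means span at least 1 on the log2 scale. The members, lists and corrections were chosen with earlier results of these data known, and promoter motifs with the sequences in view. Figures were drawn with matplotlib 3.10.9. Among the genes named for their likeness to a member, 1 is not reported here.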

Additional observations from a re-analysis of the deposited data

Results flagged for a closer look

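The change from 1 h to 3 h differed between the ligands for 2 members, by a test of the difference itself. For Ptgs2 the Pam3CSK4 change exceeded the AmTARS change by 1.00 on the log2 scale (limma, adjusted p = 3.95e-06), and the value ran from 0.82 to 1.18 over the libraries left out in turn. Ptgs2 stood at 37.2 and 40.8 CPM with AmTARS and at 79.1 and 102 CPM with Pam3CSK4 at 3 h. For Ptges the excess was 1.73 (limma, adjusted p = 1.35e-07), with a range of 1.46 to 2.01. Its AmTARS 3 h libraries (53.5 and 58.6 CPM) lay below the Pam3CSK4 ones (168 and 246 CPM).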

How the results depend on the processing

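All 72 differences of the 8 members were recomputed under 20 alternatives. Of these 1440 values 28 changed sign, none of them for a difference that had passed the test, 56 were no longer past the threshold and 25 newly passed it, and the cause was not tested. The rises of Ptges and Ptgs2 and the falls of Ptgs1, Hpgd and Hpgds with Pam3CSK4 at 3 h, and the changes of Ptges and Hpgd with AmTARS at 3 h, passed under all 20. The number of members changed with AmTARS at 1 h (1 of 8) was 0 with plain read totals and 2 with quantile normalization, with only the groups compared, with the replicate block and with the length and GC correction. It ran from 0 to 2 over the libraries left out. The number for AmTARS at 3 h (6 of 8) ran from 3 to 6 and that for Pam3CSK4 at 1 h (3 of 8) from 1 to 4 over the libraries left out. Between the ligands at 3 h it was 4 of 8, or 2 without the intensity trend, and 2 to 6 over the libraries left out. From 1 h to 3 h of AmTARS it was 2, or 0 without the intensity trend. For the difference of the changes over time it was 2 with all libraries. That number was higher without replicate 2 of Pam3CSK4 3 h, where the value was -0.48 for Hpgd and -0.31 for Ptgs1. Shares of all genes changed are not set beside these counts here, so a move in a count is not a result about the members.

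The labels do not state that equal replicate numbers mark a shared mouse or day. The deviations of replicate 3 from the other library of its group correlated between groups at -0.21 to 0.20 over genes. That other library is number 1 in some groups and 2 in others, so these correlations cannot decide whether the samples are paired. With the replicate number as a block, 2 members changed with AmTARS at 1 h and 1 with Pam3CSK4 at 1 h. Of all tested genes, 4600 instead of 4415 and 3746 instead of 5556 changed in these comparisons. At 3 h 2017 instead of 4186 genes changed with AmTARS and 5690 instead of 5576 with Pam3CSK4. In the difference of changes over time it was 672 instead of 1049. Under the block the differences of Ptgs1 (-0.18, adjusted p = 0.0884) and Ptges2 (0.16, adjusted p = 0.204) with AmTARS at 3 h, of Ptges2 (0.14, adjusted p = 0.216) and Hpgds (-0.15, adjusted p = 0.103) with Pam3CSK4 at 1 h, and of Ptges3 between the Pam3CSK4 times (0.17, adjusted p = 0.0662) did not pass, and Ptger4 with AmTARS at 1 h did (0.18, adjusted p = 0.0420). The block turned the Ptger4 value to 0.03 for AmTARS at 3 h and to -0.01 for the difference of changes.

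The other values that changed sign were small. The length and GC correction gave 0.09 for Ptgs2 and -0.06 for Hpgd with AmTARS at 1 h, 0.0019 for Ptger4 with AmTARS at 3 h, -0.01 for Hpgd with Pam3CSK4 at 1 h and -0.0027 for Ptgs1 between the ligands at 1 h. It lowered the number of all genes changed from 4415 to 1581 and from 4186 to 2099 for AmTARS at 1 h and 3 h, from 5556 to 2590 for Pam3CSK4 at 1 h and from 5576 to 4778 at 3 h, and raised it from 271 to 473 for AmTARS between 1 h and 3 h. Plain read totals gave -0.01 for Hpgd with AmTARS at 1 h, and voom gave -0.00038 for Ptgs1 between the ligands at 1 h. Quantile normalization gave 0.0026 and -0.01 for Ptges3, between the ligands at 1 h and between the AmTARS times. Over the libraries left out, the ranges were -0.07 to 0.02 for Ptgs1 with either ligand at 1 h, -0.002 to 0.16 for Ptges3 with AmTARS at 1 h and -0.09 to 0.05 for Ptger4 with AmTARS at 3 h. Between the ligands they were -0.04 to 0.04 for Ptgs1 and -0.08 to 0.08 for Ptges3 at 1 h and -0.03 to 0.14 for Ptges2 at 3 h. From 1 h to 3 h they were -0.05 to 0.02 for Ptges2 and -0.07 to 0.09 for Ptges3 with AmTARS, and -0.01 to 0.16 for Ptges2 with Pam3CSK4. With 2 libraries per group, a left-out library leaves 1 in its group, which is assumed to vary like the others.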
